A study of Homo sapiens with 6 samples.

Results

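Transcripts of 10 genes of the transforming growth factor beta (TGF-beta) pathway were examined in H9 cells treated with AZD4573, a selective CDK9 inhibitor, or with its vehicle DMSO. They are the receptors TGFBR1 and TGFBR2, the signal transducers SMAD2, SMAD3 and SMAD4, the inhibitory SMAD7, the nuclear repressors SKI, SKIL and TGIF1, and the ubiquitin ligase SMURF2. They were taken by symbol from the 61541 genes of the count table, and all 10 passed edgeR's filter on low counts, which kept 17678 genes. H9 is an established, clonal human T-cell lymphoma line of cutaneous origin, wild type by its label, so that the values describe a single line. Bulk RNA-seq covered 3 DMSO libraries and 3 AZD4573 libraries, with no other agent named for either group. Exposure to AZD4573 was at 50 nM for 4 h by the figure legends and for 4 h by the sample titles, while the discussion text has 6 h. Nothing states whether the libraries of a group came from separate cultures, and the p-values measure the spread between these libraries, which may be technical.

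TGF-beta binds TGFBR2, which then phosphorylates and activates TGFBR1. Active TGFBR1 phosphorylates SMAD2 and SMAD3, which join SMAD4, enter the nucleus and bind DNA together with other factors. SMAD7 and SMURF2 damp the signal at the receptor, SKI, SKIL and TGIF1 repress the genes bound by SMAD complexes, and in T cells the pathway is known for restraining proliferation and for its part in the formation of regulatory T cells. CDK9 is the kinase of the elongation factor P-TEFb, which releases paused RNA polymerase II into the gene body.

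Total counts ranged from 70367303 to 76571157 with DMSO and from 52101868 to 63795185 with AZD4573, so that a count of 0 allows between 0.0392 and 0.0576 CPM (a gene's counts relative to its library's total). This limit stands for 3 counts and covers counting error only. The mitochondrial genome, not transcribed by RNA polymerase II, holds 13 protein-coding genes, and their mRNAs took 3.04% to 3.22% of the counts with DMSO and 4.67% to 4.98% with AZD4573. Values below are CPM after TMM scaling, which fixes the middle of all genes, and the median log2 fold change of all genes tested was 0.03. Scaling to the mitochondrial mRNAs instead moved this median to -0.71, scaling to the library total alone moved it to -0.08, and bulk counts cannot tell fewer transcripts per cell from fewer cells with the transcript. Of 10 T-cell markers, 9 were at or above 1 CPM with DMSO (sums of 1520 to 1530 CPM with DMSO and 1740 to 1860 CPM with AZD4573), and CD2 was at 0.105 CPM. Among markers of other cells, 2 of 5 B-cell genes (sums of 61 to 67 CPM with DMSO and 92.5 to 103 CPM with AZD4573) and 2 of 5 epithelial genes (154 to 173 CPM and 137 to 142 CPM) reached 1 CPM, largely CD79A and EPCAM. The fibroblast sum was 5.01 to 7.46 CPM with DMSO and 3.62 to 4.36 CPM with AZD4573 (1 of 5 genes reached 1 CPM), no myeloid or endothelial marker did, and KDR, VWF and TEK were at 0 in every library. The part of these shifts in the values below was not tested.

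Upon AZD4573 treatment, the transcripts of both receptors, SMAD2, SMAD4, SKI, SKIL, TGIF1 and SMURF2 fell, and that of SMAD7 rose. SMAD3 rose by TMM scaling, with a log2 fold change of 0.61, and was at -0.13 by mitochondrial scaling. By TMM scaling the declines ran from 1.28-fold for SMAD2 to 3.6-fold for TGFBR1 and SMAD7 was 6.1-fold higher, while by mitochondrial scaling SMAD2 was 2.13-fold and TGFBR1 6-fold lower and SMAD7 3.65-fold higher. By edgeR's quasi-likelihood test with an adjusted p under 0.05, 8 of 10 members were thus lower, against 37.4% of all genes tested, and 2 were higher, against 37.3%. With a fold change of at least 1.5 as well, 5 members were lower (23.7% of all genes) and 2 were higher (22.7% of all genes). By mitochondrial scaling these counts were 8 and 1, while 9433 of all 17678 genes were lower and 1769 higher. In 8 members every AZD4573 library lay below every DMSO library (38.7% of all genes), and in 2 every AZD4573 library lay above (39% of all genes). The median log2 fold change of the members was -0.60, beside 0.03 over all genes. By mitochondrial scaling, 8 members were lower and 1 was higher, while over all genes 11878 were lower and 2144 higher in place of 6606 and 6596. Relative to the median of all genes, 8 members lay below and 2 above under both scalings, with SMAD7 at 2.58 and SMAD3 at 0.59 by TMM and at 2.58 and 0.58 by the mitochondrial mRNAs. The scalings differ only in a factor for each library, so this likeness was fixed in advance and is no separate check.

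**Figure D1:**
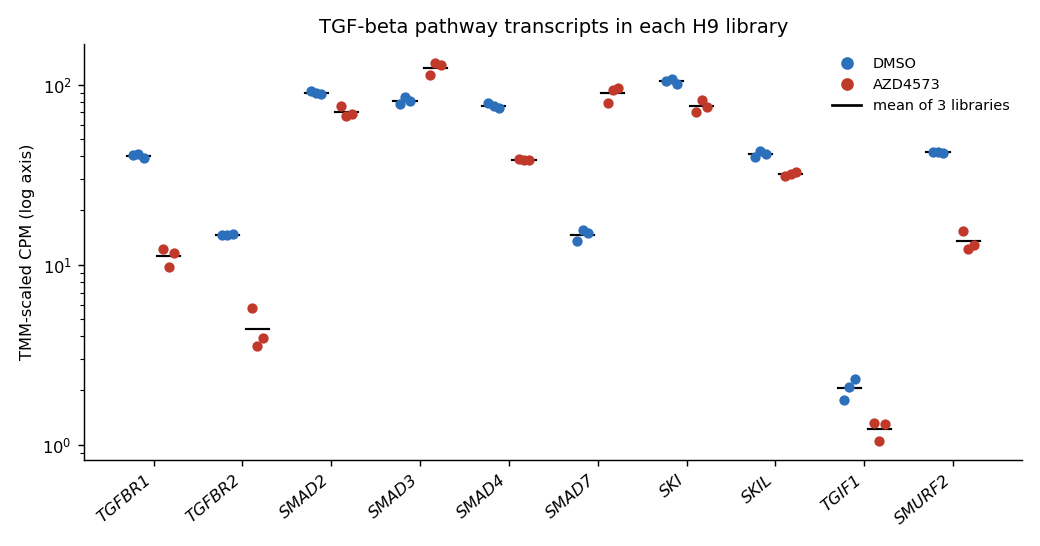
TMM-scaled CPM (log axis) of the 10 transcripts in each of the 3 DMSO and 3 AZD4573 libraries (points), with the mean of each group as a bar. The groups do not overlap for any of the 10. Over all genes, every AZD4573 library is below every DMSO library in 38.7% and above in 39%. SMAD7 and SMAD3 are the 2 transcripts that are higher with AZD4573 on this scale, while SMAD3 is at -0.13 (log2 fold change) by mitochondrial scaling.

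SMAD7 and SKIL are known as targets of SMAD complexes that feed back on the pathway, and TGFBR1 had the largest fall of the 10, so the promoters of these 3 genes are shown. Each window runs 5′ to 3′ on the strand of the gene, from 250 bases before the start site of the canonical transcript to 50 bases after it, as given by RefSeq on GRCh38.p14. The windows are chr18:48950916-48951215 (minus strand) for SMAD7, chr3:170357465-170357764 (plus strand) for SKIL and chr9:99104863-99105162 (plus strand) for TGFBR1. Capitals mark CAGAC, the core of the SMAD binding element, or its reverse complement GTCTG.
SMAD7: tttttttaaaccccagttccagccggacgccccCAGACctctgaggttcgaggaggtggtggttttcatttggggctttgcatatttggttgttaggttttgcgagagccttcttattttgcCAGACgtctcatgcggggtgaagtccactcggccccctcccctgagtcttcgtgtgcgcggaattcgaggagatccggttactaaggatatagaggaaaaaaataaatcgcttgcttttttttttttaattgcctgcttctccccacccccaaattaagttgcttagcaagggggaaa
SKIL: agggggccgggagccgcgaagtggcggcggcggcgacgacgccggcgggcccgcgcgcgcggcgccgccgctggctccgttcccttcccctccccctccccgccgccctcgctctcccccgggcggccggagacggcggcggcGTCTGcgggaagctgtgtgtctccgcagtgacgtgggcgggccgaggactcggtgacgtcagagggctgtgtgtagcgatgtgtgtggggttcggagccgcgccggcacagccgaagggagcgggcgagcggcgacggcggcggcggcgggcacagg
TGFBR1: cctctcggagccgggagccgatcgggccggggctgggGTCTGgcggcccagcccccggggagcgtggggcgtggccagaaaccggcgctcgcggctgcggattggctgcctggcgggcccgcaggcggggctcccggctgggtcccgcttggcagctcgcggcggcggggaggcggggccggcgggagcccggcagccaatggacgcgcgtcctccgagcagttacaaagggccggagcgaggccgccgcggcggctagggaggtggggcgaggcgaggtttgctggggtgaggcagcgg
With the start site as position 1, CAGAC begins at -217 and -128 in SMAD7, and GTCTG begins at -107 in SKIL and at -213 in TGFBR1. The promoter table held windows for 9 of the 10 members. On either strand, 5 of these 9 held CAGAC (the other two were SMAD3 and SMURF2), beside 45.3% of all 35116 windows. The palindromic SMAD element GTCTAGAC, which does not contain CAGAC, was in 0 of 9 windows (0.202% of all windows). The TATA box letters TATAAA were in 0 of 9 (11.5% of all) and the GATA motif letters AGATAA in 0 of 9 (10.3% of all). These matches describe the letters in the windows, and SMAD7, which rose, and TGFBR1, which fell, both held the core.

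TGFBR1 (ENSG00000106799, chr9:99104038-99154192, plus strand of GRCh38) encodes the type I receptor, the kinase that phosphorylates SMAD2 and SMAD3. Its transcripts were at 40.7, 40.9 and 39.2 CPM in the DMSO libraries and at 12.2, 9.72 and 11.6 CPM in the AZD4573 libraries. All 3 AZD4573 libraries were far below all 3 DMSO libraries, and the mean went from 40.3 ± 0.953 to 11.2 ± 1.31 CPM (SD, n = 3). The log2 fold change was -1.85 (standard error 0.0771, edgeR adjusted p = 2.1e-10), a fall deeper than that of nearly all genes, at percentile 3.77 of the log2 fold changes. TGFBR2 (ENSG00000163513, chr3:30606601-30694142, plus strand) encodes the type II receptor, which binds the ligand. It was at 14.6, 14.6 and 14.8 CPM with DMSO and at 5.74, 3.51 and 3.91 CPM with AZD4573. The DMSO libraries were nearly alike, the AZD4573 libraries all lay below them, and the first AZD4573 library was the highest of its group. The mean went from 14.7 ± 0.107 to 4.39 ± 1.19 CPM (SD, n = 3), with a log2 fold change of -1.75 (standard error 0.136, edgeR adjusted p = 6.2e-08). With each library left out in turn, the log2 fold change ranged from -1.92 to -1.76 for TGFBR1 and from -1.98 to -1.62 for TGFBR2.

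SMAD2 and SMAD3 are the receptor-regulated SMADs of the TGF-beta branch. SMAD2 (ENSG00000175387, chr18:47808957-47931146, minus strand) was at 92.1, 89.7 and 88.9 CPM with DMSO and at 76, 66.7 and 69 CPM with AZD4573. The groups did not overlap, and the decline was among the smallest of the 10, with means of 90.2 ± 1.67 and 70.6 ± 4.82 CPM (SD, n = 3). Its log2 fold change was -0.36 (standard error 0.0526, edgeR adjusted p = 3.5e-05), or 1.28-fold lower. SMAD3 (ENSG00000166949, chr15:67063763-67195173, plus strand), which unlike the main form of SMAD2 binds DNA directly, was at 78.1, 85.1 and 81.5 CPM with DMSO and at 113, 132 and 128 CPM with AZD4573. All AZD4573 libraries were above all DMSO libraries on this scale, with means of 81.5 ± 3.52 and 125 ± 9.93 CPM (SD, n = 3). Its log2 fold change was 0.61 by TMM (standard error 0.0585, edgeR adjusted p = 4.8e-07) and -0.13 by mitochondrial scaling (edgeR adjusted p = 0.066). The direction of SMAD3 thus followed the scaling. A change of scaling moves all genes nearly alike, so its place above the median of all genes is no separate check. Of the exon bases of SMAD3, 182 of 10011 are shared with a long noncoding RNA gene on the opposite strand (ENSG00000259347), which had 0 to 4 counts in each library.

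SMAD4 (ENSG00000141646, chr18:51028528-51085045, plus strand) encodes the common SMAD, which joins the receptor-regulated SMADs of both the TGF-beta and the BMP branch. It was at 78.8, 76.3 and 74.4 CPM with DMSO and at 38.5, 37.9 and 38.3 CPM with AZD4573. Both groups were tight and well apart, with means of 76.5 ± 2.2 and 38.2 ± 0.332 CPM (SD, n = 3). The log2 fold change was -1.0 (standard error 0.047, edgeR adjusted p = 5.4e-10), and it ranged from -1.03 to -0.99 with each library left out in turn. SMAD4 shares 967 of its 19606 exon bases with a protein-coding gene model on the same strand (ENSG00000267699), which had 6 to 23 counts in each library.

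SMAD7 (ENSG00000101665, chr18:48919853-48950965, minus strand) encodes the inhibitory SMAD that blocks the type I receptor and recruits SMURF ligases to it. Its transcripts were at 13.5, 15.5 and 15 CPM with DMSO and at 79.1, 93.1 and 96 CPM with AZD4573. Every AZD4573 library was several times above every DMSO library, with means of 14.7 ± 1.06 and 89.4 ± 9.02 CPM (SD, n = 3). The log2 fold change was 2.61 (standard error 0.0787, edgeR adjusted p = 2.3e-11) by TMM and 1.87 (edgeR adjusted p = 1.7e-12) by mitochondrial scaling, so that SMAD7 was higher under both. Its rise lay at percentile 95.8 of all genes tested, and it ranged from 2.54 to 2.69 with each library left out in turn. SMURF2 (ENSG00000108854, chr17:64542282-64662307, minus strand), a ubiquitin ligase that SMAD7 brings to the receptor, went the opposite way. It was at 42, 42.3 and 41.7 CPM with DMSO and at 15.3, 12.2 and 12.9 CPM with AZD4573. The DMSO libraries were nearly alike and all AZD4573 libraries lay far below them, with means of 42 ± 0.285 and 13.5 ± 1.61 CPM (SD, n = 3). The log2 fold change was -1.64 (standard error 0.0748, edgeR adjusted p = 4.2e-10), or 3.12-fold lower. SMURF2 shares 180 of its 7213 exon bases with CEP95 on the opposite strand, which had a log2 fold change of -0.43. The pseudogene SMURF2P1 had 0 counts in every library.

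SKI and SKIL are related corepressors that bind SMAD complexes and keep their target genes off. SKI (ENSG00000157933, chr1:2227388-2310213, plus strand) was at 105, 107 and 101 CPM with DMSO and at 70.8, 81.8 and 75.1 CPM with AZD4573. The groups were apart, with means of 104 ± 3 and 75.9 ± 5.52 CPM (SD, n = 3). Its log2 fold change was -0.46 (standard error 0.0544, edgeR adjusted p = 4.2e-06), or 1.37-fold lower. SKIL (ENSG00000136603, chr3:170357342-170396835, plus strand) was at 39.4, 42.5 and 41 CPM with DMSO and at 31, 31.9 and 32.6 CPM with AZD4573. Its groups were apart too, with means of 41 ± 1.53 and 31.9 ± 0.803 CPM (SD, n = 3). The log2 fold change of SKIL was -0.36 (standard error 0.053, edgeR adjusted p = 3.1e-05), or 1.29-fold lower. These declines stood at percentiles 29.6 (SKI) and 33.5 (SKIL) of all genes, well inside the bulk of the log2 fold changes.

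TGIF1 (ENSG00000177426, chr18:3411608-3459978, plus strand) encodes a homeodomain repressor that competes with coactivators for SMAD2. It was the least abundant of the 10, at 1.76, 2.09 and 2.33 CPM with DMSO and at 1.32, 1.05 and 1.31 CPM with AZD4573. Its counts were 138, 153 and 172 with DMSO and 67, 60 and 80 with AZD4573, and the groups did not overlap. The mean went from 2.06 ± 0.289 to 1.23 ± 0.151 CPM (SD, n = 3). The log2 fold change was -0.75 (standard error 0.183, edgeR adjusted p = 0.00221), with the widest error of the 10, and it ranged from -0.86 to -0.65 with each library left out in turn. Its pseudogene TGIF1P1 had 0 counts in every library.

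**Figure D2:**
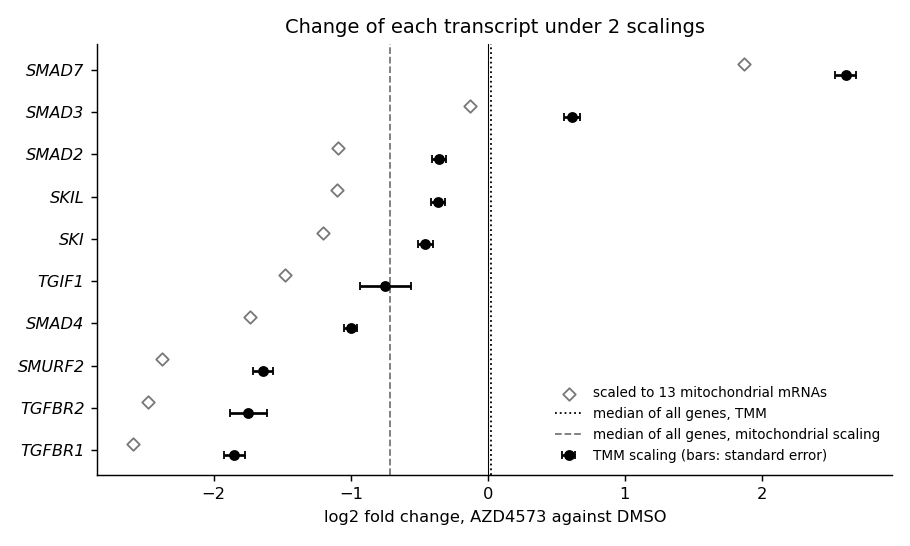
Log2 fold change, AZD4573 against DMSO, of each transcript by TMM scaling (filled points, bars are standard errors) and by scaling to the mRNAs of 13 mitochondrial genes (open diamonds), with the median of all genes under each scaling as a vertical line. SMAD7 stays above 0 at 2.61 and 1.87, SMAD3 is at 0.61 by TMM and -0.13 by mitochondrial scaling, and the other 8 lie below 0 under both.

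Ratios of counts within a library do not depend on the scaling, and 6 pairs with related roles were compared. With 3 libraries against 3, the two-sided exact permutation test cannot give a p below 0.1, so that no ratio could reach 0.05. The log2 ratio of SMAD7, the inhibitor, to SMAD4, the common transducer, was -2.55, -2.30 and -2.31 with DMSO and 1.04, 1.3 and 1.33 with AZD4573. SMAD4 counts were thus the larger in every DMSO library and SMAD7 counts the larger in every AZD4573 library. The difference was 3.61 on the log2 scale, or 12.2-fold, with no overlap between groups (exact permutation test, p = 0.1, adjusted p = 0.2 over the 6 pairs). The order of counts is not corrected for gene length. Per kb of exon, the DMSO libraries of SMAD4 and SMAD7 overlapped, at means of 3.9 and 3.72 CPM per kb. With AZD4573, SMAD4 was at 1.95 and SMAD7 at 22.7 CPM per kb. The log2 ratio of SMAD2 to SMAD3 was 0.24, 0.08 and 0.13 with DMSO and -0.58, -0.98 and -0.90 with AZD4573. The change of sign held in every library, with a difference of -0.97, or 1.95-fold (exact permutation test, p = 0.1, adjusted p = 0.2). This sign is that of counts not corrected for gene length, and it does not show which gene had the higher level. Per kb of exon, SMAD3 was above SMAD2 in both groups. The means were 8.15 and 2.48 CPM per kb with DMSO, and 12.4 and 1.94 CPM per kb with AZD4573. For SMURF2 to SMURF1, its close relative, the log2 ratio was -0.58, -0.64 and -0.72 with DMSO and -2.91, -3.42 and -3.23 with AZD4573. SMURF1 exceeded SMURF2 in each library and did so by more with AZD4573, with a difference of -2.54, or 5.82-fold (exact permutation test, p = 0.1, adjusted p = 0.2).

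The other 3 pairs overlapped between groups. The log2 ratio of the receptors, TGFBR1 to TGFBR2, was 1.48, 1.48 and 1.41 with DMSO and 1.09, 1.47 and 1.57 with AZD4573, a difference of -0.08 (exact permutation test, p = 0.8, adjusted p = 0.8), which turned to 0.06 without the first AZD4573 library. For SKIL to SKI it was -1.41, -1.33 and -1.30 with DMSO and -1.19, -1.36 and -1.20 with AZD4573, a difference of 0.10 (exact permutation test, p = 0.3, adjusted p = 0.36). For TGIF1 to its relative TGIF2 it was -5.64, -5.43 and -5.18 with DMSO and -5.50, -6.01 and -5.69 with AZD4573, a difference of -0.32 (exact permutation test, p = 0.2, adjusted p = 0.3). At this number of libraries, these values do not show that the members of a pair moved alike.

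**Figure D3:**
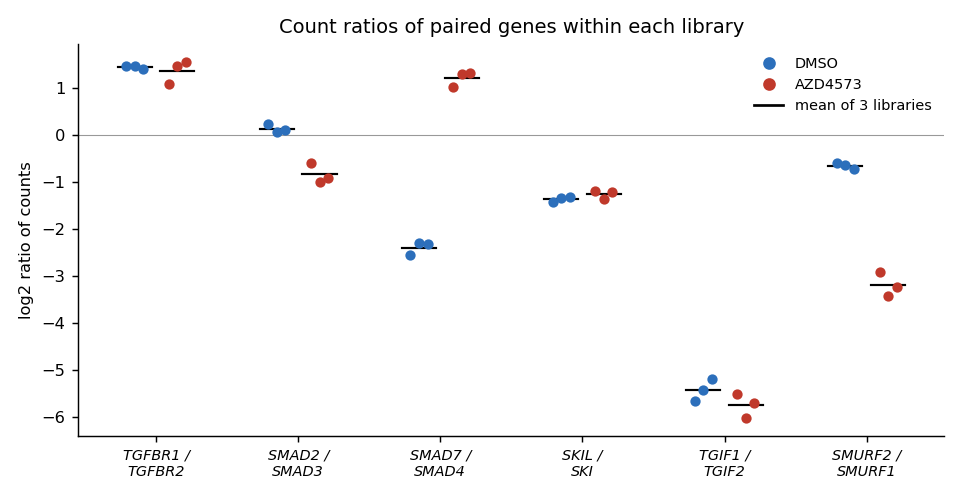
Log2 ratio of counts of the 6 gene pairs within each of the 3 DMSO and 3 AZD4573 libraries (points), with group means as bars. SMAD7 to SMAD4 goes from a mean of -2.38 with DMSO to 1.22 with AZD4573, SMAD2 to SMAD3 and SMURF2 to SMURF1 are lower with AZD4573 without overlap, and the other 3 pairs overlap.

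Levels were compared between genes as CPM per kb of exon. With DMSO, SKI was the highest at 15.6 ± 0.449 and SMAD3 followed at 8.15 ± 0.352 CPM per kb (SD, n = 3). SMURF2 was at 5.82 ± 0.0395, SKIL at 5.05 ± 0.188 and TGFBR1 at 5.04 ± 0.119 CPM per kb, and the libraries of SKIL and TGFBR1 overlapped. SMAD4 at 3.9 ± 0.112 and SMAD7 at 3.72 ± 0.268 CPM per kb also overlapped, and SMAD2 (2.48 ± 0.0459), TGFBR2 (2.14 ± 0.0157) and TGIF1 (0.254 ± 0.0356) closed the order. With AZD4573, SMAD7 was the highest at 22.7 ± 2.29 CPM per kb, up from place 7 of the 10. SMAD3 (12.4 ± 0.992 CPM per kb) and SKI (11.4 ± 0.826 CPM per kb) came next with overlapping libraries, followed by SKIL at 3.92 ± 0.0989 CPM per kb. SMAD4 at 1.95 ± 0.017, SMAD2 at 1.94 ± 0.132 and SMURF2 at 1.87 ± 0.223 CPM per kb had overlapping libraries from each to the next, and TGFBR1 (1.4 ± 0.164), TGFBR2 (0.64 ± 0.173) and TGIF1 (0.151 ± 0.0186) were the lowest. With the length of the canonical transcript, an alternative chosen after the data were seen, SMAD4 moved from place 6 to place 3 with DMSO at 8.72 CPM per kb, and SMAD7 kept places 7 and 1. Also with DMSO, SKIL moved from place 4 to place 6, and TGFBR2 (3.23 CPM per kb) passed SMAD2 (2.61 CPM per kb). The libraries of SMAD4 and SMAD7 with DMSO, and of SMAD4 and SMAD2 with AZD4573, no longer overlapped. Parts of the order thus depended on the length used. The genes span 31.1 to 131 kb of genome, and across these 10 genes the span and the log2 fold change had a Spearman rho of -0.04, given as a description.

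The genes most like TGFBR1 and SMAD7 over the 6 libraries were sought among 9504 genes, by the root mean square distance of log2 CPM centred on the DMSO mean. For TGFBR1 they were RASSF7 (distance 0.0435), GEMIN2 (0.0556) and LRRC1 (0.0596), with log2 fold changes of -1.87, -1.85 and -1.94. For SMAD7 they were PSPN (distance 0.0761), RFX3 (0.079) and NKPD1 (0.0978), each with a log2 fold change of 2.66 on the TMM scale. The search picks genes with a like fold change, so the closeness of these values was fixed by it. Shared regulation was not tested.

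A further 93 genes of the pathway in 7 lists were read by the same test. Of these, 80 were tested, 46 were lower (37.4% of all genes), 19 were higher (37.3% of all genes) and 15 did not pass, and their median log2 fold change was -0.32, beside 0.03 over all genes. At a fold change of at least 1.5, 33 were lower (23.7% of all genes) and 9 were higher (22.7% of all genes). Relative to the median of all genes, 54 lay below and 26 above. By mitochondrial scaling 71 were lower and 6 higher, beside 11878 lower and 2144 higher of all 17678 genes. Of the 19 genes higher by TMM, 11 were below 0 by mitochondrial scaling. Over all genes, higher calls went from 6596 by TMM to 2144 by mitochondrial scaling, so such losses were not particular to the pathway. The counts of each list below by TMM scaling are to be read against the same 37.4% lower and 37.3% higher over all genes, and no list was tested as such.

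Of the ligands and the proteins that store and activate them, 11 of 14 were tested, 3 were lower, 4 were higher and 4 did not pass (median log2 fold change 0.07), beside 37.4% lower and 37.3% higher over all genes. TGFB1, the main TGF-beta ligand of T cells, was at 269 ± 4.74 CPM with DMSO and 246 ± 2.02 CPM with AZD4573 (SD, n = 3), a small decline of -0.13 on the log2 scale (edgeR adjusted p = 0.00734). NRROS, which holds latent TGF-beta at the cell surface, fell from 180 ± 3.47 to 90.3 ± 8.38 CPM (log2 fold change -0.99). ITGAV, an integrin chain that activates latent TGF-beta, had a log2 fold change of -0.62 (edgeR adjusted p = 0.0262), which did not pass without the second DMSO library (adjusted p = 0.097), the third DMSO library (0.066) or the first AZD4573 library (0.093), nor with DESeq2 (0.056). LTBP2, of the latent TGF-beta binding protein family, rose from 2.31 ± 0.388 to 5.09 ± 0.144 CPM (log2 fold change 1.14). TGFB3, another ligand, went from 0.727 ± 0.1 to 1.29 ± 0.0529 CPM (log2 fold change 0.83 by TMM and 0.09 by mitochondrial scaling, edgeR adjusted p = 0.00317 and 0.71).

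Of the other receptors of the family, 9 of 12 were tested, 7 were lower and 2 were higher (median log2 fold change -0.81). BAMBI, a decoy receptor without a kinase domain, fell from 1.76 ± 0.133 to 0.126 ± 0.079 CPM (SD, n = 3). Its DMSO libraries held 150, 123 and 124 counts, and its AZD4573 libraries held 3, 6 and 13. Its log2 fold change was -3.75, and it ranged from -4.38 without the third AZD4573 library to -3.44 without the first. BMPR1A, a type I receptor for BMPs, fell from 11.8 ± 0.675 to 4.86 ± 0.154 CPM (log2 fold change -1.28). ENG, the coreceptor endoglin, rose from 0.713 ± 0.0353 to 3.91 ± 0.473 CPM (log2 fold change 2.45). TGFBR3, the coreceptor betaglycan, was at 2.45 ± 0.0576 and 3.27 ± 0.333 CPM, with a log2 fold change of 0.41 by TMM (edgeR adjusted p = 0.0117) and -0.33 by mitochondrial scaling (edgeR adjusted p = 0.04). This call of TGFBR3 was lost without the third AZD4573 library (edgeR adjusted p = 0.063) and with DESeq2 (adjusted p = 0.055). Of the other SMADs, 3 of 4 were tested, and SMAD5 of the BMP branch fell from 40.2 ± 0.0866 to 9.41 ± 1.65 CPM (log2 fold change -2.10). SMAD6, the second inhibitory SMAD, fell from 14.2 ± 0.897 to 4.31 ± 0.177 CPM (log2 fold change -1.72), opposite to SMAD7. SMAD9, also of the BMP branch, rose from 0.18 ± 0.105 to 1.06 ± 0.168 CPM (log2 fold change 2.56).

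Among regulators of the receptors and SMADs, 19 of 20 genes were tested, 10 were lower, 3 were higher and 6 did not pass (median log2 fold change -0.21). ZFYVE16, an endosomal protein that binds SMADs, fell from 12.2 ± 0.709 to 4.95 ± 0.464 CPM (log2 fold change -1.30), and 32.9% of its exon bases are shared with another gene on the opposite strand. TRIM33, a ligase that acts on SMAD4, fell from 94.3 ± 0.751 to 41.1 ± 3.21 CPM (log2 fold change -1.20). SMURF1 rose from 65.8 ± 2.95 to 122 ± 8.28 CPM (log2 fold change 0.90 by TMM and 0.16 by mitochondrial scaling). Of its exon bases, 11.7% are shared with TRRAP on the opposite strand. LDLRAD4, which sequesters SMAD2 and SMAD3, was at 35.4 ± 1.22 and 47 ± 1.71 CPM (log2 fold change 0.41 by TMM and -0.33 by mitochondrial scaling). Of the nuclear partners of SMADs, 15 of 17 were tested, 14 were lower and 1 was higher (median log2 fold change -0.80). RBL1, a pocket protein that joins SMAD3 in repressing MYC, had a log2 fold change of -1.27, and CREBBP, an acetyltransferase that acts as SMAD coactivator, fell from 102 ± 3.69 to 43.8 ± 1.47 CPM (log2 fold change -1.22). The higher gene was FOXH1, a DNA-binding SMAD partner at 0.336 CPM with AZD4573, named here for being the exception.

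Among known targets of SMAD complexes, 11 of 14 were tested, 3 were lower, 6 were higher and 2 did not pass (median log2 fold change 0.22), beside 37.4% lower and 37.3% higher over all genes. By mitochondrial scaling 9 were lower, beside 11878 lower of all 17678 genes. ID2 and ID3, inhibitors of DNA binding by basic helix-loop-helix factors, fell from 3.09 ± 0.395 to 1.01 ± 0.176 CPM (log2 fold change -1.60) and from 12 ± 0.452 to 6.28 ± 1.44 CPM (log2 fold change -0.93). KLF10, a TGF-beta inducible zinc finger factor, was at 23.2 ± 2.27 and 37.2 ± 2.9 CPM (log2 fold change 0.68 by TMM and -0.06 by mitochondrial scaling). BHLHE40, a transcriptional repressor active in T cells, was at 160 ± 5.27 and 223 ± 21.7 CPM (log2 fold change 0.48 by TMM and -0.26 by mitochondrial scaling). In the branch that signals without SMADs, all 12 genes were tested, 7 were lower, 2 were higher and 3 did not pass (median log2 fold change -0.16). ROCK2, a kinase downstream of RHOA, fell from 74.9 ± 1.07 to 23.3 ± 4.2 CPM (log2 fold change -1.69), and TRAF6, the ligase that links the receptors to the kinase TAK1, fell from 18.8 ± 0.309 to 6.23 ± 0.276 CPM (log2 fold change -1.59). RHOA, a small GTPase, and TAB2, an adaptor of TAK1, had log2 fold changes of 0.55 and 0.35 by TMM and of -0.19 and -0.39 by mitochondrial scaling.

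**Figure D4:**
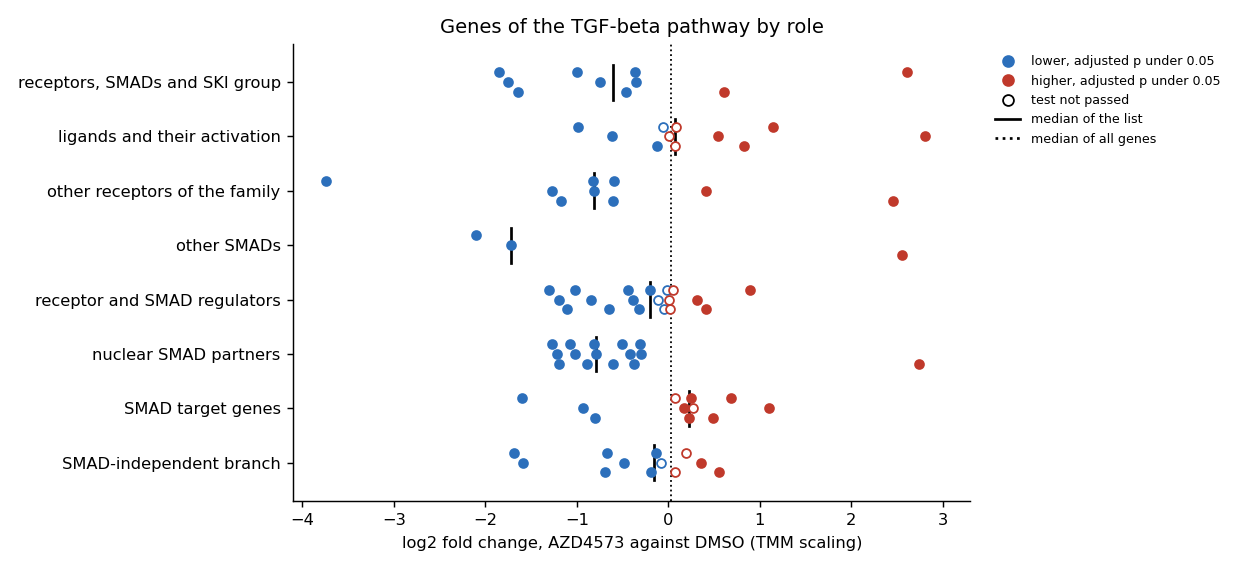
Log2 fold change (TMM scaling), AZD4573 against DMSO, of each tested gene in the 10-gene group and the 7 pathway lists, filled where edgeR's adjusted p was under 0.05, with the median of each list as a bar and the median of all genes (0.03) as a dotted line. Nuclear SMAD partners lie below the line except FOXH1. Of the higher points, SMAD3 and 11 of the 19 pathway genes (LTBP4, TGFBR3, FKBP1A, LDLRAD4, ID1, KLF10, JUNB, BHLHE40, MYC, TAB2 and RHOA) are below 0 by mitochondrial scaling. Over all genes, higher calls went from 6596 by TMM to 2144 by mitochondrial scaling.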

How the data were processed

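RNA was measured in 3 DMSO and 3 AZD4573 libraries of H9 cells, grouped by their titles. Per the submitters' processing notes and the supplemental methods, the authors trimmed reads with Cutadapt 2.3, mapped them to GRCh38 in STAR 2.7.8a and obtained expected counts for each gene from RSEM 1.3.3, whose default settings ignore strand. The deposited expected counts were whole and not normalized. By the labels the RNA was poly(A) selected, whereas the supplemental methods have rRNA depletion. Genes passing edgeR's filter (minimum count 10) were compared in R 4.3.3 with edgeR 4.0.16 (TMM, quasi-likelihood test, Benjamini-Hochberg over 17678 genes), and the procedure was tested on simulated data. Alternatives were RLE factors, library size, the mRNAs of 13 mitochondrial genes, no filter, at least 10 counts in every library, a replicate block, each library left out, a fold change of at least 2 and DESeq2 1.42.0. Positions and exon lengths came from GENCODE 44. Count ratios used counts plus 0.5. Likeness was sought among genes reaching 10 CPM in the higher group, with an offset of 0.1 CPM. Within groups, libraries differed by more than sampling noise (5.62 to 21.5 as chi-square over its degrees of freedom). The members, lists, pairs and naming rule were chosen with earlier results of these data known. The rule named the 10 members, TGFB1, in each list the 2 largest falls and 2 largest rises at an adjusted p under 0.05 and 1 CPM or more in the higher group, and the 3 genes most like TGFBR1 and SMAD7.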

Additional observations from a re-analysis of the deposited data

How the results depend on the processing

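Of 130 values of the 10 members under alternatives, 129 kept their direction and side of the threshold, and SMAD3 turned to -0.13 by mitochondrial scaling. Over all 42 named genes, 530 of 544 values kept both, 7 lost the threshold and 7 reversed, all 7 by mitochondrial scaling (SMAD3 -0.13, TGFBR3 -0.33, LDLRAD4 -0.33, KLF10 -0.06, BHLHE40 -0.26, RHOA -0.19 and TAB2 -0.39). That scaling, which moved the median of all genes from 0.03 to -0.71, gave 1 higher member in place of 2, 11878 lower and 2144 higher genes in place of 6606 and 6596, 9433 and 1769 at 1.5-fold in place of 4191 and 4012, and 71 and 6 pathway genes in place of 46 and 19. A fold change of at least 2 left 2450 lower and 2643 higher genes. With each library left out, the members stayed at 8 lower and 2 higher. The replicate numbers did not pair the libraries (correlations of deviations from -0.0208 to 0.0417), and the fit with a replicate block gave 8 lower and 2 higher members, 6524 lower and 6447 higher genes, and 45 lower and 18 higher pathway genes. No count ratio moved beyond the spread between libraries under its alternatives. With 3 libraries a group, no ratio could reach 0.05, and TGIF1, at 60 to 172 counts, had the widest error of the members.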

Other observations

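Several genes of the pathway lay near the limit of detection and fell outside the naming rule, so they are given here as chosen after their values were seen. TGFB2, a second TGF-beta ligand, had 6 counts in each DMSO library and 33, 33 and 30 in the AZD4573 libraries, or 0.0799 ± 0.00302 and 0.573 ± 0.0786 CPM (SD, n = 3), and 34.2% of its exon bases are shared with other genes. FOXP3, the factor of regulatory T cells, had 13, 16 and 9 counts with DMSO and 14, 21 and 27 with AZD4573, its log2 fold change did not pass by mitochondrial scaling (0.36, edgeR adjusted p = 0.44), and 15.6% of its exon bases are shared with other genes. FOXH1 had 0, 11 and 0 counts with DMSO and 9, 25 and 24 with AZD4573, and 39.2% of its exon bases are shared with KIFC2 on the opposite strand. SMAD1, the usual SMAD of the BMP branch, had 0 to 2 counts in each library. LRRC32, which displays latent TGF-beta on regulatory T cells, had 11, 19 and 9 counts with DMSO and 3, 0 and 1 with AZD4573, and did not pass the filter.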
